A study of Mus musculus with 6 samples.

Results

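Accessible chromatin at 10 genes of glucocorticoid and stress hormone signalling was compared between Ogtflox+/Y and Ogtflox-/Y mice. The genes were Nr3c1, Nr3c2, Fkbp5, Sgk1, Tsc22d3, Hsd11b1, Crh, Crhr1, Crhr2 and Crhbp. Their regions were all those that overlap the RefSeq bounds of a gene extended by 20 kb on each side, which gave 170 of the 193148 regions measured. Accessibility was read by ATAC-seq, in which a transposase cuts open DNA, in nuclei of the ventral tegmental area, a midbrain centre of reward. Ogt, an X-linked gene, encodes the enzyme that places O-GlcNAc sugars on nuclear and cytoplasmic proteins. Both genotypes received AAV-TH-Cre, a vector named for tyrosine hydroxylase, and AAV-DIO-H2B-EGFP, which labels nuclei after Cre acts, and labelled nuclei were sorted. The series' design text speaks of an Ogt knockdown, and the labels do not spell out which allele each genotype symbol stands for. The sources used here give neither ages nor the number of animals behind a library. Each genotype has 3 libraries, and nothing says that they came from separate mice, so p-values reflect library spread alone, which could be technical.

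Corticosterone enters neurons and binds Nr3c1, the glucocorticoid receptor, and Nr3c2, the mineralocorticoid receptor, which then act on DNA as transcription factors. Hsd11b1 regenerates active hormone inside cells. Fkbp5, a co-chaperone of Hsp90, lowers the hormone affinity of the glucocorticoid receptor and is itself induced by it, and Sgk1, a kinase, and Tsc22d3, known as GILZ, are classic induced targets. Crh, corticotropin-releasing hormone, starts the hormonal axis and also acts within the brain through the receptors Crhr1 and Crhr2, and Crhbp binds and sequesters it. In the ventral tegmental area, stress-released Crh acts on dopaminergic neurons.

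The promoters that the results below turn on are shown 5′ to 3′ on the strand of the gene (RefSeq windows of build GRCm38.p6, which is mm10, from 250 bases before to 50 after a start). The RefSeq table held 15 such windows for 8 of the 10 genes, all but Nr3c1 and Crh. Capitals mark matches on either strand to 4 motifs. These were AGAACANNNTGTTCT, the palindromic glucocorticoid response element, the hexamer TGTTCT that forms each arm of it, TTCNNNGAA, the STAT palindrome, and TGACGTCA, the cAMP response element.
Sgk1, start with a full element, chr10:21993640-21993939, + strand: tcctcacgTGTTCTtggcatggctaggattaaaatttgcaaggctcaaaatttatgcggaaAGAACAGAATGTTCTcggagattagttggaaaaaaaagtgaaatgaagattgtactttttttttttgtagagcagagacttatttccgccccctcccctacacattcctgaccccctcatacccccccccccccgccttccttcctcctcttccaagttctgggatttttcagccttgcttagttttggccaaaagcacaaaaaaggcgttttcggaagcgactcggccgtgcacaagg
Sgk1, most accessible start, chr10:21994416-21994715, + strand: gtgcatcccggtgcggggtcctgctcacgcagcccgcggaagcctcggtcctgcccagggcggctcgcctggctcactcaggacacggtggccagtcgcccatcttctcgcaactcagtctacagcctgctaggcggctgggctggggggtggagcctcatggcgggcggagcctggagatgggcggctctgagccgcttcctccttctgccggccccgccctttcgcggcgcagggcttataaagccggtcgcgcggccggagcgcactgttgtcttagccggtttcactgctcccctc
Fkbp5, chr17:28486100-28486399, - strand: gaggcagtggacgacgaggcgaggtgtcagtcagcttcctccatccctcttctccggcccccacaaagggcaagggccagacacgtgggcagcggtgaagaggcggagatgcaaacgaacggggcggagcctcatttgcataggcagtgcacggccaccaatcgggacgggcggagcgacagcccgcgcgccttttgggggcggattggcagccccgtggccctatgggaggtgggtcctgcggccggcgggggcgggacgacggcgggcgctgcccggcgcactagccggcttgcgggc
Tsc22d3, internal start, chrX:140548522-140548821, - strand: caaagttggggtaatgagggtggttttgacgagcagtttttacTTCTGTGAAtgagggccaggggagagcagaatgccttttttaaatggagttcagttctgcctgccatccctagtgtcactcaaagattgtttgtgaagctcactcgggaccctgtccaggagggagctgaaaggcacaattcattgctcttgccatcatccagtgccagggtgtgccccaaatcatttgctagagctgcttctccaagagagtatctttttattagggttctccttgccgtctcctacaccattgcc
Hsd11b1, chr1:193242311-193242610, - strand: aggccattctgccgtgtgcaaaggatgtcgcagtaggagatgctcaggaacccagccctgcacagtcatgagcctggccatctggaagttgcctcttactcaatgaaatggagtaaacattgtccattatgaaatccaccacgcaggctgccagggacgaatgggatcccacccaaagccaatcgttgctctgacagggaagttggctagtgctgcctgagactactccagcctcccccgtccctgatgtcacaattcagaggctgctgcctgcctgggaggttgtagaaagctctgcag

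Of the 15 windows, 1 held the full element, 4 the hexamer, 2 the STAT palindrome and 0 the cAMP response element. Among all 32851 promoter windows of the table these shares were 0.00913%, 19.0%, 8.30% and 1.79%. The full element lay in an Sgk1 window at chr10:21993701-21993715, and it contains the hexamer on both strands. It fell in no measured region, 267 bases after one region and 621 bases before the next. The Fkbp5, Hsd11b1 and most accessible Sgk1 windows shown held none of the 4 motifs, which says only that these letters are absent from 300 bases each. Of the 15 windows 9 overlapped a region, and 4 of the 6 without one belong to Sgk1.

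Reads in regions numbered 14067854, 12698758 and 15795872 in Ogtflox+/Y replicates 1 to 3, against 13120042, 24440507 and 19876169 in Ogtflox-/Y replicates 1 to 3. These were 33.0%, 31.0% and 37.0% of the library totals in Ogtflox+/Y, against 38.2%, 36.6% and 37.6% in Ogtflox-/Y. Scaling by library totals or by reads in regions therefore differs between the genotypes. Ogtflox+/Y replicate 1 carries that genotype in its genotype label, but its title names Ogtflox-/Y. Ogt itself (chrX:101640011-101684351) had a summed level of 23.2, 23.9 and 25.8 CPM in Ogtflox+/Y, against 16.97, 19.04 and 15.5 CPM in Ogtflox-/Y, with every Ogtflox+/Y library higher (log2 fold change 0.50, edgeR adjusted p = 0.0012). Such a sum does not show whether an exon was deleted, so it does not check the labels. Grouped by title, 0 regions were called with edgeR, while 23047 of all regions and 12 of these had an unadjusted p under 0.05. Levels of regions and of gene lists are CPM, read counts relative to the TMM-scaled reads in regions. There 3 reads equal 0.117 to 0.237 CPM depending on the library. Sums over a gene locus, as for Ogt, are CPM relative to the TMM-scaled total over all loci. That total counts regions shared by neighbouring genes more than once, and 3 reads equal 0.081 to 0.153 CPM on its scale. Regions within 20 kb of marker genes of other cells held reads, which does not show by itself that such cells were sorted. The 8 astrocyte marker genes had 31 of 91 regions called higher and 7 lower. Their summed level was 622, 489 and 614 CPM in Ogtflox+/Y replicates 1 to 3, against 435 to 491 CPM in Ogtflox-/Y. The 6 GABAergic marker genes had 22 of 61 higher and 2 lower, at 309 to 368 CPM in Ogtflox+/Y and 219 to 279 CPM in Ogtflox-/Y. The 10 dopaminergic marker genes, all with regions, had 15 of 107 higher and 4 lower, at 974 to 1077 CPM in Ogtflox+/Y and 942 to 1357 CPM in Ogtflox-/Y. Oligodendrocyte markers had 19 of 67 higher and 11 lower, glutamatergic 2 of 32 and 9, microglial 4 of 38 and 3, and endothelial 4 of 33 and 6. Over all regions 15.4% were higher and 12.7% lower. No marker gene of these lists was at 0 in any library. Any part of other cell types in the values below was not tested, and fewer nuclei with an open site cannot be told apart from less opening per nucleus.

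The stress hormone genes changed in both directions, gene by gene. Summed over their regions, Fkbp5, Crhr1, Crhr2 and Hsd11b1 lost accessibility, and Nr3c1 and Tsc22d3 gained it. These sums were scaled apart from the single regions. Not every region followed its sum: Fkbp5 and Hsd11b1 also had 2 called gains each, and Tsc22d3 had 1 called loss. Sgk1 gained accessibility at single regions. Of 167 regions tested with edgeR, 24 were called higher and 20 lower in Ogtflox+/Y at an adjusted p under 0.05. Over all 191693 regions tested, 28.1% were called, 15.4% higher and 12.7% lower, so the shares at these genes, 14.4% higher and 11.98% lower, lay near the background. The median log2 fold change (Ogtflox+/Y over Ogtflox-/Y) was 0.01 at these regions and -0.01 at all regions. In 43 of the 44 called regions the libraries of the genotypes did not overlap, the exception being at the Hsd11b1 promoter; the share was 97.7% here and 92.8% of all called regions. Ogtflox+/Y replicate 2 was the lowest of its group in 14 of the 24 higher regions, replicates 1 and 3 in 5 each. How often each library was lowest over all higher regions was not counted, so this is not a trait of these genes. The calls just inside and outside the threshold had adjusted p = 0.048 and 0.052.

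**Figure D1:**
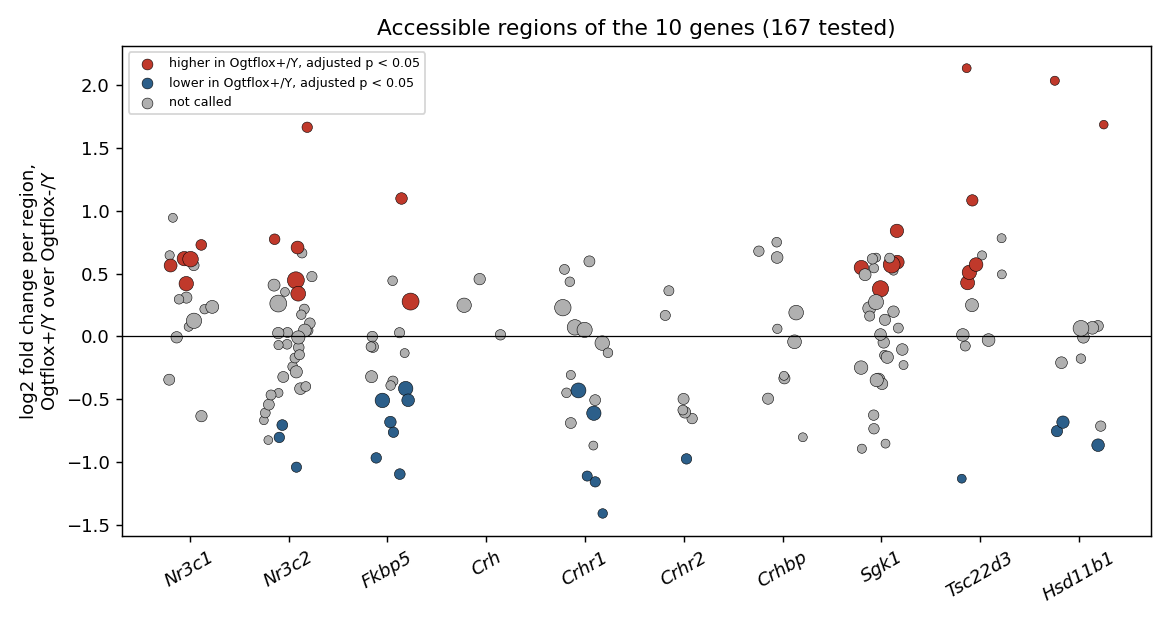
Log2 fold change of each tested region (Ogtflox+/Y over Ogtflox-/Y; vertical axis) by gene; each point is 1 of 167 regions, larger points have a higher mean CPM, red marks the 24 regions called higher, blue the 20 called lower and grey the rest. Called regions of Nr3c1 and Sgk1 lie above 0 and those of Crhr1 and Crhr2 below it, while Nr3c2, Fkbp5, Tsc22d3 and Hsd11b1 have both and Crh and Crhbp have none.

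Gains took a larger share of the most accessible regions than of the others, here and over the whole series, with no test of the difference. Of the 24 regions at these genes with a mean of 10 CPM or more, 10 rose and 4 fell, against 37.5% and 5.82% of 22426 such regions overall. Of the 143 below 10 CPM, 14 rose and 16 fell, against 12.5% and 13.6% overall. The 4 losses at 10 CPM or more were at Fkbp5 and Crhr1. The limit of 10 CPM was chosen with values known. Loess offsets, which take out a trend with level, lowered the fold at each gene's most accessible region except that of Crhr2. The log2 fold change there became 0.42 at Nr3c1, 0.14 at Nr3c2 and 0.28 at Sgk1 (edgeR adjusted p = 0.031, 0.15 and 0.023). The counts by level were not repeated with these offsets.

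Among the receptors, Nr3c1 (chr18:39410545-39519421) had 17 regions, of which 5 rose and 0 fell, while 12 did not pass. The 5 gains lay within the gene bounds between 39483560 and 39490951. With no Nr3c1 start in the promoter table, they could not be placed relative to a start. The second most accessible region, chr18:39491427-39491827, had 19.4 ± 1.48 CPM in Ogtflox+/Y and 17.8 ± 1.33 CPM in Ogtflox-/Y (SD, n = 3 each). Its groups overlapped and it was not called (0.12, edgeR adjusted p = 0.43). The most accessible region, chr18:39489680-39490080, had 30.4, 20.03 and 25.3 CPM in Ogtflox+/Y replicates 1 to 3, against 13.6, 17.8 and 17.6 CPM in Ogtflox-/Y replicates 1 to 3. Every Ogtflox+/Y library lay above every Ogtflox-/Y library, with Ogtflox+/Y replicate 2 closest (log2 fold change 0.62 with SE 0.14; edgeR adjusted p = 0.0038). Its neighbour, chr18:39489267-39489667, had 15.0, 14.4 and 13.3 CPM in Ogtflox+/Y, against 9.49, 9.36 and 8.99 CPM in Ogtflox-/Y, so each group was tight and the groups were apart (0.62, SE 0.13, edgeR adjusted p = 0.0020). The largest fold at Nr3c1, 0.73 at chr18:39483560-39483960, rested on 2.76 ± 0.497 CPM in Ogtflox+/Y and 1.63 ± 0.485 CPM in Ogtflox-/Y (SD, n = 3 each; edgeR adjusted p = 0.048). That last call failed in DESeq2 (adjusted p = 0.13), with library totals or reads in regions, and without any library except Ogtflox-/Y or Ogtflox+/Y replicate 2 (edgeR adjusted p = 0.073 to 0.17). With library totals, which shift the median of all regions to -0.27, the most accessible region had 0.35 (edgeR adjusted p = 0.095), and against Ogtflox+/Y replicate 2 alone it had 0.26 (0.32).

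Nr3c2 (chr8:76898083-77245012) had 38 regions, of which 37 were tested, 5 rose and 3 fell. Its most accessible region, chr8:76899006-76899775, is 770 bp wide, lies 2940 bp before the RefSeq start used here, within the gene's bounds, and also overlaps the non-coding gene Gm10649. It had 50.5, 47.1 and 47.5 CPM in Ogtflox+/Y, against 35.1, 37.3 and 34.0 CPM in Ogtflox-/Y. The groups were well apart (log2 fold change 0.45 with SE 0.09; edgeR adjusted p = 0.0020), though the call was lost with library totals (0.18, edgeR adjusted p = 0.22) and loess offsets (0.14, 0.15). At the start itself, chr8:76901934-76902334, the levels were 50.2, 39.0 and 41.4 CPM in Ogtflox+/Y, against 40.5, 34.3 and 34.5 CPM in Ogtflox-/Y, and the groups overlapped (0.26, edgeR adjusted p = 0.080; 0.028 without Ogtflox+/Y replicate 2). Deep within the gene, chr8:77173726-77174126 had 3.55, 1.74 and 3.32 CPM in Ogtflox+/Y, against 0.759, 1.13 and 0.757 CPM in Ogtflox-/Y. This was the largest gain of Nr3c2 (1.67, SE 0.31, edgeR adjusted p = 9.2e-04), smaller with Ogtflox+/Y replicate 2 alone (0.92, edgeR adjusted p = 0.20). The largest loss, chr8:77046227-77046627, had 1.12 ± 0.532 CPM in Ogtflox+/Y and 2.31 ± 0.299 CPM in Ogtflox-/Y (SD, n = 3 each; -1.04, edgeR adjusted p = 0.020). It was no longer called in DESeq2 (adjusted p = 0.059) or without Ogtflox+/Y replicate 3 or Ogtflox-/Y replicate 1 or 3 (edgeR adjusted p = 0.12, 0.069 and 0.058).

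Fkbp5, the receptor's co-chaperone and feedback gene (chr17:28398753-28486149), changed in opposite directions at its start and in the rest of its locus. Of 19 regions 2 rose, both at the start, and 7 fell, from 13378 to 99769 bp past it. Just before the gene, at chr17:28486682-28487082, the levels were 4.15, 5.38 and 3.72 CPM in Ogtflox+/Y, against 2.13, 2.15 and 1.89 CPM in Ogtflox-/Y. The groups were apart by more than their spread (log2 fold change 1.098 with SE 0.23; edgeR adjusted p = 0.0019), and this call passed in each alternative that kept the genotype label. The promoter region itself, chr17:28485991-28486391, had 52.9, 42.9 and 43.8 CPM in Ogtflox+/Y, against 39.4, 38.1 and 37.7 CPM in Ogtflox-/Y. That difference was small (0.28, SE 0.10, edgeR adjusted p = 0.045) and changed sign with loess offsets (-0.03, edgeR adjusted p = 0.79). It was lost with library totals (0.01, 0.95), with reads in regions (0.17, 0.14), in DESeq2 (adjusted p = 0.075) and without any library except Ogtflox+/Y replicate 2 (edgeR adjusted p = 0.051 to 0.17).

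The largest loss at Fkbp5, within the gene at chr17:28431946-28432346, had 1.21, 1.42 and 1.53 CPM in Ogtflox+/Y, against 3.26, 2.85 and 2.89 CPM in Ogtflox-/Y (log2 fold change -1.096 with SE 0.25; edgeR adjusted p = 0.0034). All Ogtflox+/Y libraries lay under all Ogtflox-/Y libraries, and the fold was the same with Ogtflox+/Y replicate 2 alone (-1.08, edgeR adjusted p = 0.061). Beyond the far end of the gene, chr17:28391563-28391963 had 1.21, 1.27 and 1.46 CPM in Ogtflox+/Y, against 3.11, 2.42 and 2.32 CPM in Ogtflox-/Y (-0.97, edgeR adjusted p = 0.011). A more accessible pair of losses was chr17:28407361-28407761, with 10.3 ± 1.25 CPM in Ogtflox+/Y and 14.8 ± 2.46 CPM in Ogtflox-/Y, and chr17:28386180-28386580, with 10.3 ± 0.648 CPM in Ogtflox+/Y and 13.7 ± 1.601 CPM in Ogtflox-/Y (SD, n = 3 each; edgeR adjusted p = 0.015 and 0.028). The 7 losses ranged from -1.096 to -0.42, and in none did the genotypes overlap.

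**Figure D2:**
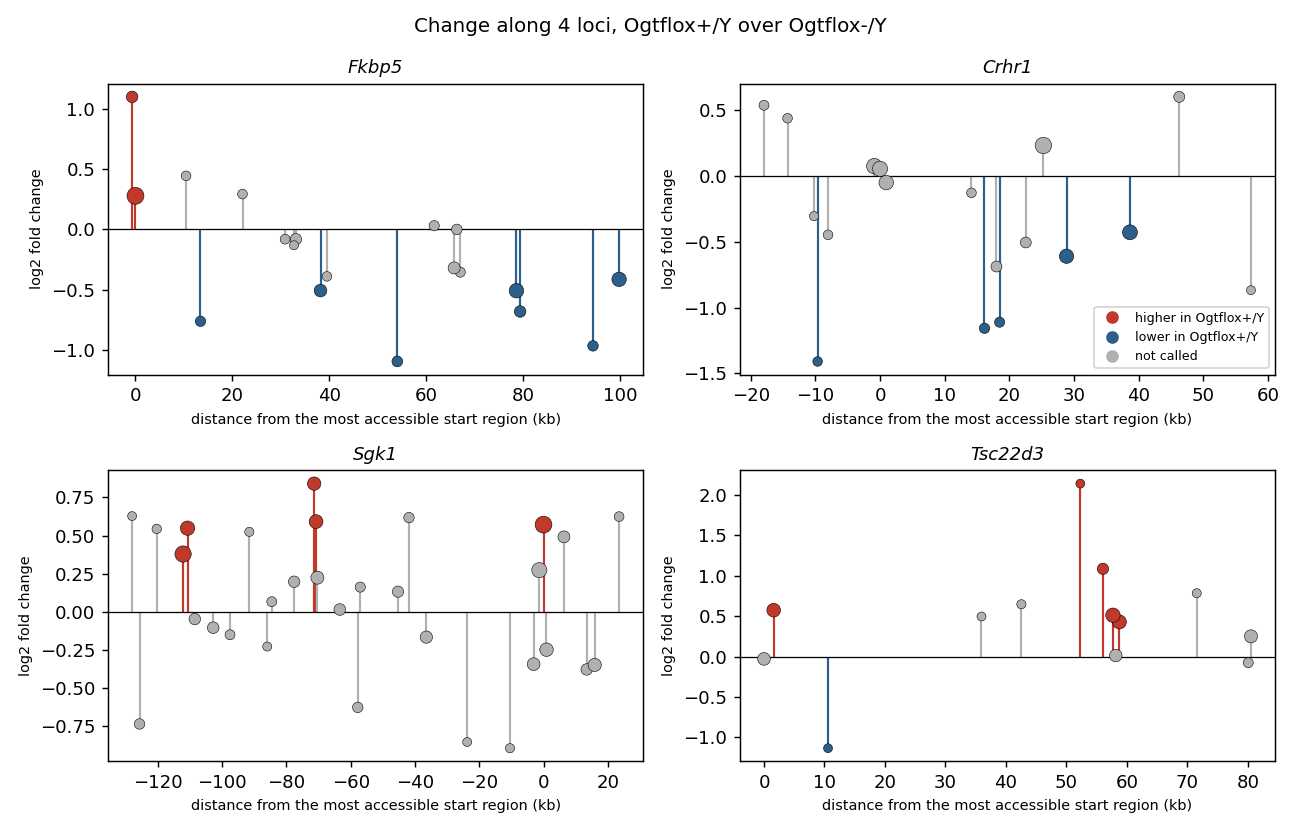
Log2 fold change of each tested region (Ogtflox+/Y over Ogtflox-/Y; vertical axis) against the distance in kb from the most accessible region at a RefSeq start (horizontal axis, positive in the direction of the gene), with stems to 0, larger points for a higher mean CPM, red for called higher, blue for called lower and grey for not called. Fkbp5 has 2 gains at its start and 7 losses past it, Crhr1 has 5 losses and no gain, and Sgk1 has gains in 3 clusters.

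Among the induced targets, Sgk1 (chr10:21882184-21999903) had 31 regions, of which 5 rose and 0 fell. The gains were at both starts that a region overlapped, near one of them and at a pair of regions between them. The most accessible, chr10:21994337-21994737, at the start shown above, had 56.2, 41.2 and 43.7 CPM in Ogtflox+/Y, against 32.0, 31.5 and 31.5 CPM in Ogtflox-/Y. Ogtflox-/Y libraries were almost level and Ogtflox+/Y replicate 1 stood highest (log2 fold change 0.57 with SE 0.11; edgeR adjusted p = 0.0012). The value was 0.30 with library totals (edgeR adjusted p = 0.068) and 0.36 with Ogtflox+/Y replicate 2 alone (0.061). The far upstream start, chr10:21882054-21882687, had 31.0, 35.1 and 36.8 CPM in Ogtflox+/Y, against 24.1, 27.0 and 27.8 CPM in Ogtflox-/Y (0.38, edgeR adjusted p = 0.011). Library totals and loess offsets ended this call (edgeR adjusted p = 0.50 and 0.37). Between the starts, chr10:21922967-21923367 had 10.6, 7.92 and 10.1 CPM in Ogtflox+/Y, against 4.71, 5.93 and 5.20 CPM in Ogtflox-/Y. It was the largest gain of Sgk1 (0.84, SE 0.17, edgeR adjusted p = 0.0018) and passed with every scaling. The region next to the full response element, chr10:21993033-21993433, had 17.9, 15.754 and 20.7 CPM in Ogtflox+/Y, against 15.6, 13.8 and 15.750 CPM in Ogtflox-/Y. These groups all but touched without overlapping, and the region was not called (0.27, edgeR adjusted p = 0.11).

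Tsc22d3 (chrX:140539528-140600522) had 14 regions, of which 13 were tested, 5 rose and 1 fell. The largest gain lay at an internal start, chrX:140548414-140548814, where Ogtflox+/Y replicates 1 to 3 had 33, 12 and 12 reads (2.49, 0.950 and 0.797 CPM), against 2, 9 and 8 reads (0.152, 0.351 and 0.378 CPM) in Ogtflox-/Y. The groups did not overlap, but the difference of 2.14 on the log2 scale (edgeR adjusted p = 0.0042, SE 0.50) rests on few reads and was 1.46 without Ogtflox+/Y replicate 1 (edgeR adjusted p = 0.057). A firmer gain was chrX:140544676-140545076, 2208 bp before another start, with 4.46, 4.99 and 2.52 CPM in Ogtflox+/Y, against 1.75, 2.19 and 1.61 CPM in Ogtflox-/Y (1.08, SE 0.27, edgeR adjusted p = 0.0059). The most accessible region, chrX:140543022-140543422, had 14.8, 11.95 and 15.0 CPM in Ogtflox+/Y, against 10.5, 10.03 and 8.94 CPM in Ogtflox-/Y (0.51, edgeR adjusted p = 0.010). Its call was lost with library totals (0.25, edgeR adjusted p = 0.24) and without Ogtflox-/Y replicate 3 (0.44, 0.057). The other start regions, chrX:140542556-140542956 and chrX:140600712-140601112, had log2 fold changes of 0.01 and -0.03 and overlapping groups. The single loss, chrX:140590130-140590530, had 0.507 ± 0.102 CPM in Ogtflox+/Y and 1.17 ± 0.364 CPM in Ogtflox-/Y (SD, n = 3 each; edgeR adjusted p = 0.041), and was called neither in DESeq2 (adjusted p = 0.13) nor when any 1 of the libraries was left out (edgeR adjusted p = 0.059 to 0.15).

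Hsd11b1, the enzyme that regenerates active hormone (chr1:193221640-193264045), had 12 regions, of which 3 fell and 2 rose. Its promoter region, chr1:193242243-193242643, had 2.95, 1.58 and 1.73 CPM in Ogtflox+/Y, against 4.10, 2.93 and 3.64 CPM in Ogtflox-/Y. Ogtflox+/Y replicate 1 reached the lowest Ogtflox-/Y library, and the call (-0.75, edgeR adjusted p = 0.038) did not hold in DESeq2 (adjusted p = 0.085), with loess offsets (edgeR adjusted p = 0.083) and without Ogtflox+/Y replicate 2 or 3 or Ogtflox-/Y replicate 1 or 3 (0.096 to 0.15). The largest loss, 13057 bp outside the gene at chr1:193208183-193208583, had 3.47, 4.43 and 3.12 CPM in Ogtflox+/Y, against 7.52, 6.52 and 6.10 CPM in Ogtflox-/Y (-0.87, SE 0.20, edgeR adjusted p = 0.0036). The largest gain lay 14381 bp outside it on the other side, at chr1:193278426-193278826, with 25, 11 and 28 reads in Ogtflox+/Y, against 8, 8 and 6 reads in Ogtflox-/Y (2.04, SE 0.42, edgeR adjusted p = 0.0020; 1.19 with Ogtflox+/Y replicate 2 alone, edgeR adjusted p = 0.27). The most accessible region of the window, chr1:193272489-193273258, overlaps the neighbouring gene G0s2 and did not pass (0.06, edgeR adjusted p = 0.69).

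In the releasing hormone system, both receptors lost accessibility away from their starts, and the hormone and its binding protein had no called region. Crhr1 (chr11:104130463-104175523) had 18 regions, of which 5 fell and 0 rose. The start region, chr11:104132625-104133025, had 15.0, 18.5 and 19.5 CPM in Ogtflox+/Y, against 16.5, 17.6 and 16.98 CPM in Ogtflox-/Y, with Ogtflox-/Y within the Ogtflox+/Y range (log2 fold change 0.05 with SE 0.12; edgeR adjusted p = 0.78). Past it, chr11:104161141-104162210, at 1070 bp the widest region of the 10 genes, had 6.57, 9.97 and 10.2 CPM in Ogtflox+/Y, against 14.4, 12.3 and 14.3 CPM in Ogtflox-/Y (-0.61, SE 0.16, edgeR adjusted p = 0.0085). Nearer the start, chr11:104151122-104151522 had 1.06, 1.11 and 0.929 CPM in Ogtflox+/Y, against 1.898, 2.26 and 2.46 CPM in Ogtflox-/Y (-1.11, edgeR adjusted p = 0.0063). These groups were apart, as were those of chr11:104148782-104149182, with 1.11 ± 0.351 CPM in Ogtflox+/Y and 2.52 ± 0.567 CPM in Ogtflox-/Y, and of chr11:104171147-104171831, with 12.8 ± 0.956 CPM in Ogtflox+/Y and 17.3 ± 1.39 CPM in Ogtflox-/Y (SD, n = 3 each; edgeR adjusted p = 0.0081 and 0.014). The largest fold, -1.41 at chr11:104122965-104123365, 7098 bp outside the gene, rested on 6, 14 and 7 reads in Ogtflox+/Y, against 17, 36 and 54 reads in Ogtflox-/Y (edgeR adjusted p = 0.013). It was lost without Ogtflox-/Y replicate 3 or Ogtflox+/Y replicate 3 (edgeR adjusted p = 0.094 and 0.075). The most accessible region, chr11:104157891-104158291, within the gene and over the non-coding gene Gm35469, had 31.6, 32.2 and 39.2 CPM in Ogtflox+/Y, against 29.3, 29.1 and 29.6 CPM in Ogtflox-/Y, which did not overlap and did not pass (0.23, edgeR adjusted p = 0.10).

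Crhr2 (chr6:55090048-55133016) had the lowest top region of the 10 genes. It had 7 regions, none over 3.14 CPM on average and none at its start. At chr6:55090597-55090997, within the gene, Ogtflox+/Y libraries had 0.906, 1.66 and 1.33 CPM, against 2.28, 2.81 and 2.51 CPM in Ogtflox-/Y libraries (log2 fold change -0.97 with SE 0.27; edgeR adjusted p = 0.013). DESeq2 ended the call (adjusted p = 0.051), as did a fit without Ogtflox-/Y replicate 2 or Ogtflox+/Y replicate 1 (edgeR adjusted p = 0.066 and 0.063). The highest region of the window, chr6:55076773-55077173, lies in the neighbouring gene Gars and had 2.49 ± 0.525 CPM in Ogtflox+/Y and 3.79 ± 0.273 CPM in Ogtflox-/Y (SD, n = 3 each; -0.60, edgeR adjusted p = 0.052). It was called with library totals (-0.87, edgeR adjusted p = 0.0087), with reads in regions (-0.71, 0.027) and without Ogtflox+/Y replicate 2 (-0.79, 0.020).

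Crh (chr3:19693401-19695396) had 3 regions and no call. The highest, chr3:19693872-19694500, had 13.97, 13.7 and 10.95 CPM in Ogtflox+/Y, against 11.3, 10.1 and 11.2 CPM in Ogtflox-/Y, and the groups overlapped (log2 fold change 0.25 with SE 0.14; edgeR adjusted p = 0.18). The second, chr3:19694647-19695279, had 3.57 ± 0.451 CPM in Ogtflox+/Y and 2.53 ± 0.844 CPM in Ogtflox-/Y (SD, n = 3 each; 0.46, edgeR adjusted p = 0.18). Crhbp (chr13:95431376-95444831) had 11 regions, of which 10 were tested, with log2 fold changes of -0.80 to 0.75. Its highest region, chr13:95419161-95419561, 11815 bp outside the gene, had 12.8, 15.8 and 14.01 CPM in Ogtflox+/Y, against 12.1, 11.7 and 13.6 CPM in Ogtflox-/Y (0.19, SE 0.13, edgeR adjusted p = 0.29).

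**Figure D3:**
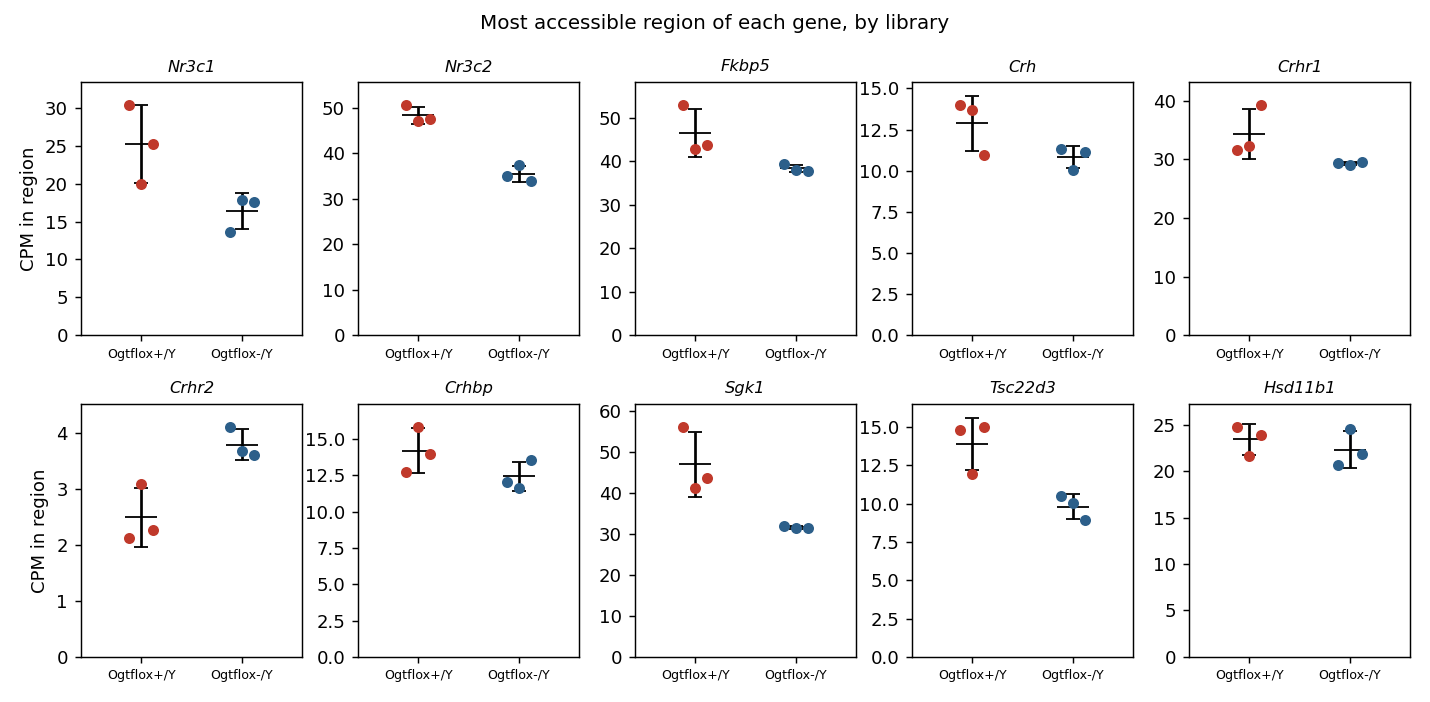
CPM (vertical axis, from 0) in the most accessible region of each gene for the 3 Ogtflox+/Y libraries (red, left) and the 3 Ogtflox-/Y libraries (blue, right), with mean and SD in black. The groups are apart for Nr3c1, Nr3c2, Fkbp5, Crhr1, Sgk1 and Tsc22d3, where Ogtflox+/Y is higher, and for Crhr2, where it is lower, and they overlap for Crh, Crhbp and Hsd11b1. The regions shown for Crhr2, Crhbp and Hsd11b1 lie outside the gene bounds.

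Per kilobase, the most open region of Sgk1, Fkbp5 and Nr3c2 lay at each gene's start. That of Sgk1 had 117 ± 20.03 CPM per kb in Ogtflox+/Y and 78.9 ± 0.671 CPM per kb in Ogtflox-/Y (SD, n = 3 each). That of Fkbp5 had 116 ± 13.8 CPM per kb in Ogtflox+/Y and 95.8 ± 2.16 CPM per kb in Ogtflox-/Y. For Nr3c2 it was the region at the start, with 109 ± 14.7 CPM per kb in Ogtflox+/Y and 90.8 ± 8.72 CPM per kb in Ogtflox-/Y. These 3 genes were within their spread of each other in Ogtflox+/Y, whereas in Ogtflox-/Y Sgk1 came after Fkbp5 and Nr3c2. Crhr1 had 85.6 ± 10.6 CPM per kb in Ogtflox+/Y and 73.2 ± 0.629 CPM per kb in Ogtflox-/Y, and Nr3c1 had 62.9 ± 12.9 CPM per kb in Ogtflox+/Y and 40.8 ± 5.95 CPM per kb in Ogtflox-/Y. Crhbp, Tsc22d3 and Hsd11b1 lay between 30.5 and 35.4 CPM per kb in Ogtflox+/Y, and between 24.5 and 31.0 CPM per kb in Ogtflox-/Y. Crh had 20.5 ± 2.65 CPM per kb in Ogtflox+/Y and 17.2 ± 1.08 CPM per kb in Ogtflox-/Y, and Crhr2 had 6.20 ± 1.31 CPM per kb in Ogtflox+/Y and 9.44 ± 0.680 CPM per kb in Ogtflox-/Y. The Crhr2 top region exceeded 62.9% of all regions per kilobase, and that of Fkbp5 99.2%. The top regions of Crhr2 and Hsd11b1 lie outside these genes and overlap the neighbouring genes Gars and G0s2. That of Crhbp lies 11815 bp outside the gene.

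Summed over all regions of a gene and tested with edgeR over 18420 protein-coding genes, 2 of the 10 loci rose and 4 fell. These sums had TMM factors of their own, so their CPM and fold changes are not on the scale of single regions. Over all genes 37.5% of loci were called, 17.9% higher and 19.6% lower. Crhr2 changed most, with 7.64, 7.63 and 7.55 CPM in Ogtflox+/Y, against 9.28, 12.2 and 12.3 CPM in Ogtflox-/Y (log2 fold change -0.57 with SE 0.14; edgeR adjusted p = 0.0052). Hsd11b1 had 32.8 ± 0.897 CPM in Ogtflox+/Y and 39.4 ± 1.71 CPM in Ogtflox-/Y (-0.27), and Fkbp5 had 62.2 ± 2.59 CPM in Ogtflox+/Y and 72.5 ± 1.92 CPM in Ogtflox-/Y (-0.22; SD, n = 3 each; edgeR adjusted p = 0.0054 and 0.0056). The Fkbp5 sum fell although its promoter region, 41.2% of the locus signal, did not, but the TMM fits of loci and regions differ in scale. With library totals, which both fits share, the Fkbp5 locus had -0.35 (edgeR adjusted p = 0.0094) and the promoter region 0.01 (0.95). The median of all regions was -0.27 there. Crhr1 had 67.3, 79.4 and 82.2 CPM in Ogtflox+/Y, against 86.8, 87.5 and 94.1 CPM in Ogtflox-/Y (-0.23, edgeR adjusted p = 0.015), a call lost without Ogtflox+/Y replicate 1 or Ogtflox-/Y replicate 3 (0.076 and 0.075).

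The gains were Tsc22d3, with 43.8, 36.6 and 39.2 CPM in Ogtflox+/Y, against 33.8, 33.7 and 33.1 CPM in Ogtflox-/Y (log2 fold change 0.25 with SE 0.07; edgeR adjusted p = 0.013), and Nr3c1, with 69.6, 63.9 and 67.4 CPM in Ogtflox+/Y, against 54.3, 59.3 and 58.0 CPM in Ogtflox-/Y (0.22, SE 0.06, edgeR adjusted p = 0.0067). The Tsc22d3 call was lost without Ogtflox+/Y replicate 1 (0.18, edgeR adjusted p = 0.074). With library totals, where the median of all loci is -0.12, both had lower values (0.13 and 0.11, edgeR adjusted p = 0.38 and 0.52). With a window of 50 kb the Nr3c1 value was 0.07 (edgeR adjusted p = 0.33) and that of Hsd11b1 -0.13 (0.067), while Sgk1 passed (0.14, 0.039). With 20 kb, Sgk1 had 126 ± 3.36 CPM in Ogtflox+/Y and 114 ± 7.22 CPM in Ogtflox-/Y (SD, n = 3 each; 0.14, edgeR adjusted p = 0.077), and its libraries did not overlap. Nr3c2, Crh and Crhbp had 0.06, 0.12 and -0.03 (edgeR adjusted p = 0.45, 0.48 and 0.84). Neighbouring genes share some of the same regions, so loci are not independent.

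**Figure D4:**
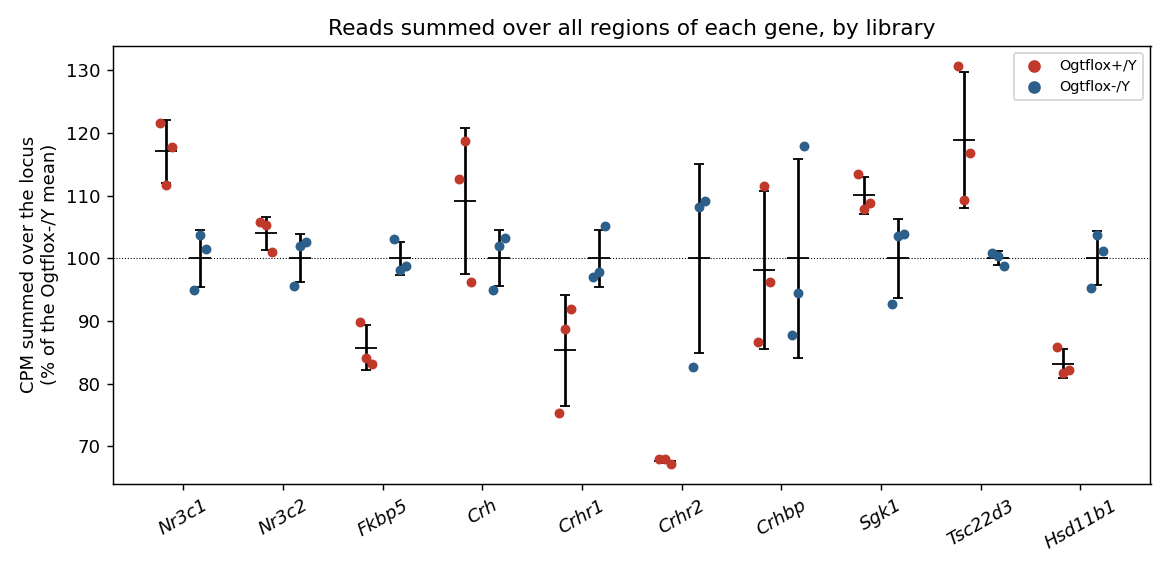
CPM summed over all regions of each gene with 20 kb on each side, as a percent of the Ogtflox-/Y mean (vertical axis), for the 3 Ogtflox+/Y libraries (red, left of each pair) and the 3 Ogtflox-/Y libraries (blue, right), with mean and SD in black; the dotted line is 100%. Fkbp5, Crhr1, Crhr2 and Hsd11b1 have all Ogtflox+/Y libraries under all Ogtflox-/Y libraries, and Nr3c1, Sgk1 and Tsc22d3 the reverse. The sums were scaled apart from the single regions.

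Some calls did not depend on any one library. Of the 44 called regions 12 gains and 6 losses were called with the same sign in each of the 6 fits without 1 library, 10.8% of those tested, against 13.1% of all regions. Of these, 5 gains and 6 losses were also called in DESeq2 and under all 3 other scalings, 6.59% against 10.8%. The gains were the intragenic Nr3c2 region at 77173726, the Fkbp5 region at 28486682, the Sgk1 region at 21922967, the Tsc22d3 region at 140544676 and the Hsd11b1 flank at 193278426. The losses were at Fkbp5 (28391563 and 28431946), Crhr1 (104148782, 104151122 and 104161141) and the Hsd11b1 flank at 193208183.

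Other genes of the pathway came from 4 lists. The classic glucocorticoid target genes, 13 of 14 with a region, had 46 of 141 regions higher (32.6%) and 8 lower (5.67%), against 15.4% and 12.7% of all regions. Regions of 10 CPM or more over the whole series had 37.5% higher and 5.82% lower, and the lists were not split by level. Of their loci 8 were higher and 1 lower, against 17.9% and 19.6% of all loci. Their summed level was 1852, 1518 and 1793 CPM in Ogtflox+/Y replicates 1 to 3, against 1512, 1324 and 1318 CPM in Ogtflox-/Y. Ogtflox+/Y replicate 2 was lowest of its group, as in the other pathway lists and the astrocyte, oligodendrocyte and microglial markers. It was not lowest in the dopaminergic, GABAergic, glutamatergic or endothelial markers. With library totals 21 regions were higher and 24 lower, against 6.82% and 24.6% of all regions, and with Ogtflox+/Y replicate 2 alone 16 and 8. The largest gain was near Pdk4, a kinase that restrains glucose oxidation (chr6:5466068-5466468), with 1.40 ± 0.646 CPM in Ogtflox+/Y and 0.233 ± 0.00452 CPM in Ogtflox-/Y (SD, n = 3 each; log2 fold change 2.57, edgeR adjusted p = 7.7e-04). This rests on 20, 9 and 30 reads in Ogtflox+/Y, against 3, 6 and 5 reads in Ogtflox-/Y. It was 1.56 with Ogtflox+/Y replicate 2 alone (edgeR adjusted p = 0.19), and the region did not pass the filter with library totals or without Ogtflox+/Y replicate 3. The largest loss was within Zbtb16, a transcription factor (chr9:48764552-48764952), with 0.762 ± 0.0873 CPM in Ogtflox+/Y and 2.25 ± 0.763 CPM in Ogtflox-/Y (-1.52, edgeR adjusted p = 0.0026).

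Receptor chaperones and coregulators, 14 genes, had 58 of 281 regions higher (20.6%) and 21 lower (7.47%), against 15.4% and 12.7% of all regions. With library totals 19 were higher and 51 lower, against 6.82% and 24.6% of all regions. Within Ncoa1, a coactivator, chr12:4302521-4302921 had 0.906, 1.58 and 1.33 CPM in Ogtflox+/Y, against 4.48, 4.17 and 3.12 CPM in Ogtflox-/Y (log2 fold change -1.61, edgeR adjusted p = 3.6e-04). The genotypes were far apart there.

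The pituitary-adrenal axis genes, 9 of 10 with a region, had 7 of 56 regions higher (12.5%) and 6 lower (10.7%), and the steroid metabolism genes, 9 of 10, had 8 of 56 higher (14.3%) and 6 lower (10.7%), near the shares of all regions. Near Pomc, the precursor of the pituitary hormone that drives the adrenal, chr12:3937881-3938281 had 2.80 ± 0.512 CPM in Ogtflox+/Y and 0.990 ± 0.267 CPM in Ogtflox-/Y (SD, n = 3 each; log2 fold change 1.56, edgeR adjusted p = 7.5e-04). Near Adcyap1, encoding the stress peptide PACAP, chr17:93226082-93226482 had 1.06, 0.792 and 3.05 CPM in Ogtflox+/Y, against 4.63, 3.20 and 3.03 CPM in Ogtflox-/Y. These groups overlapped, and the call (-1.08, edgeR adjusted p = 0.027) was lost with loess offsets (0.052) and without Ogtflox+/Y replicate 1 or 2 or Ogtflox-/Y replicate 1 or 2 (0.055 to 0.12). Near Hsd11b2, the enzyme that inactivates the hormone, chr8:105508987-105509387 had 1.17 ± 0.356 CPM in Ogtflox+/Y and 3.54 ± 0.259 CPM in Ogtflox-/Y (SD, n = 3 each; -1.58, edgeR adjusted p = 4.2e-04). Near Srd5a1, a steroid reductase, chr13:69559387-69559787 had 6.65, 2.45 and 2.72 CPM in Ogtflox+/Y, against 1.14, 1.21 and 1.56 CPM in Ogtflox-/Y. Ogtflox+/Y replicate 1 stood far above the others (log2 fold change 1.58, edgeR adjusted p = 0.0023). With Ogtflox+/Y replicate 2 alone the log2 fold change was 0.88.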

How the data were processed

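ATAC-seq libraries of sorted nuclei, 3 Ogtflox+/Y and 3 Ogtflox-/Y by the genotype label, were compared. Per the submitters' processing notes, mm10 was the build and the tools included MACS2, Picard, SAMtools 1.9, BWA, Trimmomatic and FastQC, without roles. How reads were counted, whether they were shifted and how regions were drawn is not stated there. Per the file headers, columns hold reads, RPKM and a score for every region. The deposited counts are raw; 94.6% of regions are 401 bp wide. The deposited RPKM values equal count over width and 1 library total, and served only to recover those totals; the deposited score is a scaled signal and was not used.

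Counts were tested over all regions with edgeR 4.0.16 (R 4.3.3, quasi-likelihood, TMM, filterByExpr, Benjamini-Hochberg). Gene loci were tested in the same way, with TMM factors of their own. At these genes 3 of the 170 regions did not pass the filter. The SE is the log2 fold change over the root of the F statistic. DESeq2 1.42.0, no filter, 3 other scalings (library totals, reads in regions, loess offsets by limma 3.58.1), leaving out each library, grouping by title and other windows were alternatives; Ogtflox+/Y replicate 2 alone was added after seeing the data. The fits were tested on simulated data. Every pair of replicate libraries differed by more than sampling noise (chi-square per degree of freedom 1.85 to 2.98). Members, lists, motifs and rules were chosen with earlier results of these data known. The text names, per gene, its regions at a start, its most accessible region and its largest gain and loss, and per list the largest gain and loss (1 of these is not reported here); the further regions were picked with their values known. Gene bounds came from the RefSeq table of GRCm38.p6, which gives no exons, so regions within a gene are not assigned to exons, introns or UTRs. The floor of 3 reads covers counting error only.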

Additional observations from a re-analysis of the deposited data

How the results depend on the processing

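With library totals the counts turned: 7 regions of the 10 genes were higher and 39 lower, 46 and 106 at the pathway lists, 13072 and 47194 over all regions (21.7% of calls higher, against 54.9% with TMM and 40.3% with reads in regions), and 0 of the 10 loci were higher; here the median of all regions is -0.27, against -0.01 with TMM and -0.12 with reads in regions. Reads in regions gave 65 lower pathway regions. DESeq2 gave 9 lower regions at these genes, 23 at the lists and 14862 over all regions. With Ogtflox+/Y replicate 2 alone, a fit in which that library is assumed to vary like the Ogtflox-/Y group, the counts were 5 higher and 4 lower at these genes, 44 and 26 at the lists, 11371 and 10761 over all regions, and 0 and 2 loci. Grouping by title gave 0 in each count with edgeR; the cause was not tested. An adjusted p under 0.01 left 14 higher and 5 lower regions. Gene bounds alone gave 65 higher and 23 lower pathway regions and 50 kb gave 193 and 84, since the windows hold fewer or more regions. A start window of 2000 bp gave 10 higher start regions, against 4. Over all regions that overlap a RefSeq promoter window 35.4% were higher and 5.82% lower. Shares over the whole series are not given here for the 2000 bp window, the stricter threshold or loci with library totals. Leaving out 1 library gave 18 to 25 higher and 9 to 18 lower regions at these genes, 1 to 2 higher and 3 to 4 lower loci, 76 to 133 and 21 to 43 pathway regions, and 19100 to 29969 and 14676 to 25007 over all regions; the lowest counts of losses at these genes came without Ogtflox-/Y replicate 1. The called Fkbp5 promoter region changed sign with loess offsets (-0.030, edgeR adjusted p = 0.79). All other sign changes were in values not called in either setting. With library totals these were -0.0042 and -0.21 at the Nr3c2 and Crhr1 starts, -0.25 at the Tsc22d3 start at 140542556, -0.023, -0.076, -0.027 and -0.20 at the top regions of Crh, Crhbp, Crhr1 and Hsd11b1, and -0.0066 and -0.069 at the Crh and Nr3c2 loci. With reads in regions they were -0.059, -0.099 and -0.050 at the Crhr1 start, that Tsc22d3 start and the Hsd11b1 top region. With loess offsets they were -0.033, -0.12 and 0.038 at the Nr3c2, Crhr1 and 140600712 Tsc22d3 starts, -0.032 and -0.15 at the Crhr1 and Hsd11b1 top regions, and 0.0048 at the Crhbp locus. By title they were 0.099 at the Crhbp locus and -0.020 at the Hsd11b1 top region, and with Ogtflox+/Y replicate 2 alone 0.15 and -0.076 there. Leaving out 1 library gave -0.0084 to 0.17 at the Crhr1 start, -0.047 to 0.11 and -0.23 to 0.15 at the Tsc22d3 starts at 140542556 and 140600712, and -0.13 to 0.10 at the Crhbp locus. Of the other values of named regions and loci, 393 kept direction and side of the threshold, 98 lost the call and 5 gained it. Regions near 1 CPM rest on few reads, so smaller changes there were not detectable. No paired analysis was possible because the replicate numbers are accession order and the titles' numbers are not shared between groups.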
